A study of Mus musculus with 40 samples.

Results

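The miR-344 family is a group of small RNAs made from a cluster of hairpins on mouse chromosome 7, and 4 of its mature forms, miR-344-3p, miR-344b-3p, miR-344c-3p and miR-344d-3p, were followed here through the hippocampus of a mouse model of heart failure. They are listed as mmu-miR-344-3p, mmu-miR-344b-3p, mmu-miR-344c-3p and mmu-miR-344d-3p among the 1978 mature mouse miRNAs of the count table and were chosen by name. Where the table held a miRNA on several precursors, the row was selected on its total count over all libraries, the highest being kept, so that no difference between groups entered that step. The family itself was put forward with results of these data in view. The table held 19 entries whose names start with miR-344. The 4 members carried 325288 reads, 95.6% of all reads of these 19 entries, and were the 4 most abundant of them.

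A miRNA is cut from a hairpin precursor and loaded into an Argonaute protein, where its seed, the bases 2 to 8 from the 5′ end, pairs with messenger RNAs and lowers their translation or stability. Either arm of the hairpin, named 5p or 3p, can be kept, and usually one of them dominates. The miR-344 hairpins are known from rodents, are read mostly in the nervous system, and lie beside the imprinted genes of the mouse region that corresponds to the human Prader-Willi syndrome locus.

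The libraries came from the CA1 region of the hippocampus of 40 mice of the C57Bl/6J background, male and female, each mouse giving 1 small RNA library. The younger mice, 3 months old, were 9 CamKIIδC TG mice and 5 wild-type controls, and the older mice, 6 months old, were 11 CamKIIδC TG mice and 15 wild-type controls. The TG mice carry a transgene of CaMKIIδC, a splice form of a calcium and calmodulin dependent kinase, whose excess in the heart leads to heart failure, and the wild-type controls are littermates without it. The promoter of the transgene is not given in the sources used here. For the 3-month wild-type control mice 1 and 2, the genotype field of the labels reads TG against the title, and the title was followed. The tissue is a mixture of cells. Thus fewer cells of a type and less RNA per cell cannot be told apart, and the name neuronal that is sometimes given to the family could not be checked against sorted cells.

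The mature sequences of the members are shown because they decide which members share targets and which could be mistaken for each other in counting. They are RefSeq sequences on the GRCm38.p6 assembly, written 5′ to 3′ with the seed in capitals, and all 19 entries found a match there.
miR-344-3p: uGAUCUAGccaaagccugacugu
miR-344c-3p: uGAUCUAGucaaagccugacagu
miR-344b-3p: cAUUUAGCcaaagccugacugu
miR-344d-3p: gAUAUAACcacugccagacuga
miR-344-3p and miR-344c-3p had the same seed and differed only by C9U and U21A, where the base of miR-344-3p comes first and positions count from 1 at its 5′ end. miR-344b-3p starts 1 base further along the shared motif, so that 20 of its 22 bases were those of miR-344-3p but its seed was another. miR-344d-3p was the most distant member, with 14 to 16 of 22 aligned bases identical to the other members, and its own seed. The 4 members thus fell into 3 seed groups. No mature member occurred in the hairpin of another with fewer than 2 mismatches. The number of mismatches allowed in counting is not given in the sources used here, so some exchange of reads between miR-344-3p and either miR-344c-3p or miR-344b-3p, each 2 aligned bases apart from it, is possible.

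Among the other entries, some were close copies of members in sequence but not in amount.
miR-344e-3p: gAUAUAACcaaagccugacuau
miR-344h-3p: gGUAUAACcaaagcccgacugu
miR-344e-3p shares its seed with miR-344d-3p, from which it differs at 5 of 22 bases. It had 455 reads in all libraries together, against 176543 for miR-344d-3p. miR-344h-3p differs from miR-344e-3p at A2G, U16C and A21G, with the base of miR-344e-3p first and positions counted from its 5′ end, and the first of these changes the seed, and had 359 reads.

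All 13 hairpins of the family lay on the minus strand within chr7:61683124-62085310 of GRCm38, a stretch of 402187 bases. Of these, 7 lay in introns of the long non-coding RNA gene A230057D06Rik, 1 in an intron of A330076H08Rik and 5 in no annotated host gene on the same strand. miR-344c-3p comes from Mir344c at chr7:61837311-61837402 and miR-344b-3p from Mir344b at chr7:61790519-61790581, both in introns of A230057D06Rik. miR-344-3p can come from Mir344 at chr7:61877770-61877864, in the same host, or from Mir344-2 at chr7:61940027-61940106, in an intron of A330076H08Rik. These copies give the same mature sequence and their count rows differed by at most 1 read in any library, so the reads of one could not be separated from those of the other. Beyond the higher end of the cluster, the next protein-coding genes were Ndn, 261259 bases away, and then Magel2, Mkrn3 and Peg12, all of them known as imprinted.

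miR-344d-3p can come from 3 hairpins, Mir344d-1 at chr7:61683124-61683192, Mir344d-2 at chr7:61685272-61685351 and Mir344d-3 at chr7:61726249-61726328. Only the last of these lay in A230057D06Rik. The hairpins are shown with the 3p arm in capitals, because this arm is the same in all of them while the 5p arms differ.
Mir344d-1: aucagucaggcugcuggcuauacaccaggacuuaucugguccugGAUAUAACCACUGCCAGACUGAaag
Mir344d-2: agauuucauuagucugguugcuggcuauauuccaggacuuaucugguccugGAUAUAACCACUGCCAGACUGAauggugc
Mir344d-3: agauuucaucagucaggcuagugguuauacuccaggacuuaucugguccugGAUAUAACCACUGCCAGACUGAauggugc
The 5p arms can be told apart, and their reads were far from equal. Of 7963 reads on the 5p arms of miR-344d, 7921, or 99.5% with a 95% Wilson interval of 99.3 to 99.6%, carried the sequence of Mir344d-3. The arms of Mir344d-1 and Mir344d-2 had 28 and 14 reads. Such intervals cover counting error only, since no molecular identifiers are named for these libraries and reads may include PCR copies.

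The 3p arm had more reads than the 5p arm for every mature pair listed. Where copies of a hairpin give the same 3p sequence, the arms were compared over the copies together, since the 3p reads of a single copy could not be separated. The 5p arm held 4.32% of the reads of miR-344d (95% Wilson interval 4.22 to 4.41%), 0.751% of those of miR-344c (0.607 to 0.928%) and 0.0691% of those of miR-344 (0.0552 to 0.0864%). miR-344b-5p was at 0 in all 40 libraries beside 27694 reads of miR-344b-3p, for which the upper end of the 95% Wilson interval of the 5p share was 0.0139%, and the limit that 3 counts give was 0.0108%. The share of miR-344d was therefore the highest among the members, and nearly all of it was miR-344d-3-5p. Within libraries, miR-344d-3-5p amounted to between 2.16 and 6.11% of the miR-344d-3p count, with a median of 4.51%. The plot of reads along the cluster shows these differences on a log scale.

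**Figure D1:**
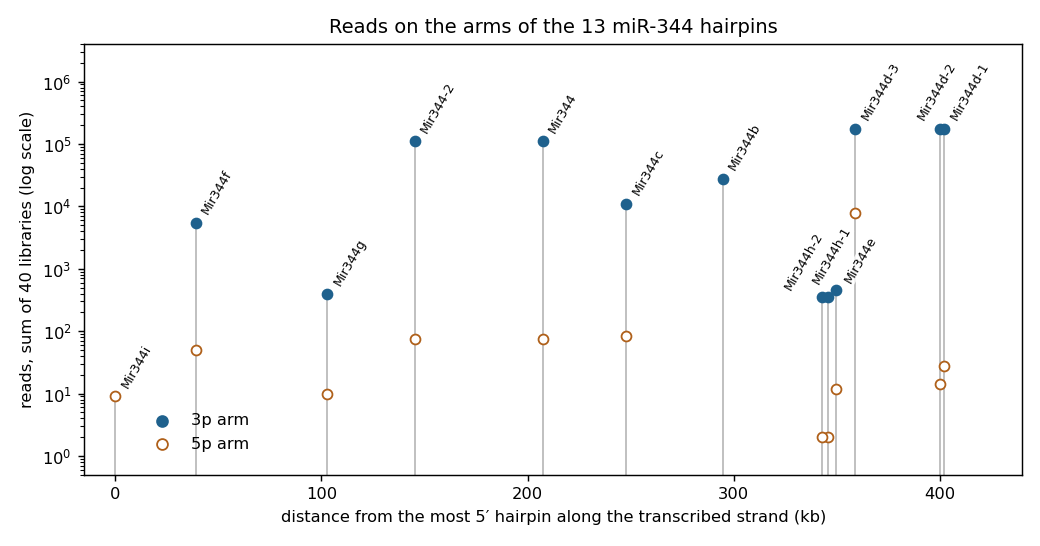
Reads of the 3p arm (filled points) and of the 5p arm (open points) at each of the 13 miR-344 hairpins, summed over 40 libraries, on a log axis, against the distance in kb from the most 5′ hairpin along the transcribed strand. Mature miRNAs with identical copies are drawn at each copy, the 1 entry of Mir344i is drawn as a 5p arm, and arms with 0 reads are not drawn. The 3p count lies above the 5p count wherever both are drawn, but for hairpins with identical copies it is the count of all copies together.

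Libraries held between 1926108 and 22892729 miRNA counts, so that 3 counts correspond to between 0.0956 and 2.32 CPM, the counts per 1000000 counts of a library after TMM scaling. All 4 members were counted in all 40 libraries and passed the filter on low counts in all 5 comparisons, the lowest single count being 20 for miR-344c-3p. Depth differed between the ages, with a median of 18431486 miRNA counts in 3-month TG mice and 9239179 in 6-month TG mice. Of the 15 other entries, 3 to 5 passed the filter, depending on the comparison.

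By mean level over the 40 libraries, miR-344d-3p was the highest member at 395 ± 130 CPM (SD), followed by miR-344-3p at 216 ± 42.5, miR-344b-3p at 50.9 ± 12.1 and miR-344c-3p at 23.2 ± 7.37. They ranked 117, 148, 247 and 297 among the 699 miRNAs that passed the filter over the 4 groups. These levels are counts of whole mature miRNAs and were not divided by length. The order held within libraries with few exceptions. miR-344d-3p was above miR-344-3p in 36 of 40 libraries, miR-344-3p above miR-344b-3p in 40 of 40, and miR-344b-3p above miR-344c-3p in 39 of 40. The exceptions for the first pair were 2 of 9 3-month TG mice, 1 of 5 3-month controls and 1 of 11 6-month TG mice. Neighbors in this order other than miR-344d-3p and miR-344-3p thus hardly overlapped within a mouse.

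The first comparison asked how the members differed between 6 and 3 months of age in CamKIIδC TG mice. miR-344c-3p rose 1.74-fold and was called, while miR-344-3p and miR-344d-3p had higher values at 6 months and miR-344b-3p lower ones without passing the test. A miRNA was called when its adjusted p in edgeR's quasi-likelihood test was under 0.05 and its absolute log2 fold change (log2FC) over 0.26. Of the 4 members, 1 was called, beside 15.7% of all 629 miRNAs tested, and 7.47% of all were called as higher. The median log2FC of the members was 0.50, beside -0.09 over all miRNAs tested. Because the members were chosen with earlier results of these data known, these counts describe the members and do not set the family apart from other miRNAs.

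The values of miR-344c-3p, which shares its seed with miR-344-3p, ran from 9.97 to 22.3 CPM in the 9 TG mice at 3 months, with a median of 15.4 CPM. At 6 months the 11 TG mice ran from 14.0 to 36.8 CPM, with a median of 25.0 CPM. The groups overlapped, but 8 of the 11 older mice lay above every younger one, and mice 7, 9 and 11 did not. The means were 15.3 ± 3.75 CPM (SD, n = 9) and 26.3 ± 7.58 CPM (n = 11). The log2FC was 0.80 ± 0.19 (SE), with a 95% interval of 0.41 to 1.19 and an adjusted p of 0.0067 in edgeR.

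miR-344d-3p, the most abundant member, had values from 139.9 to 451 CPM in 3-month TG mice, with a median of 249 CPM. In 6-month TG mice the values ran from 265 to 641 CPM, with a median of 413 CPM. The groups overlapped widely, since 4 of 11 older mice lay above every younger one. At 3 months the values fell in a high set, 393 to 451 CPM in mice 1, 2, 3 and 8, and a low set, 139.9 to 249 CPM in mice 4, 5, 6, 7 and 9. The log2FC was 0.59 ± 0.22 with an adjusted p of 0.0750 in edgeR, and the 95% interval was 0.13 to 1.06.

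For miR-344-3p, the 3-month TG mice lay between 123 and 215 CPM with a median of 189 CPM. The 6-month TG mice lay between 157 and 344 CPM with a median of 233 CPM, and 8 of the 11 were above every 3-month mouse. Mouse 9, at 157 CPM, was the only older mouse below the mean of the younger ones. The log2FC was 0.41 ± 0.14, with a 95% interval of 0.11 to 0.71, and the adjusted p of 0.0536 in edgeR missed the threshold.

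miR-344b-3p went the other way. The 3-month TG mice lay between 46.7 and 72.1 CPM with a median of 56.1 CPM, and the 6-month TG mice between 27.3 and 73.2 CPM with a median of 45.9 CPM. Of the 11 older mice, 6 lay below every younger mouse and mouse 1 lay above every one of them. The log2FC was -0.30 ± 0.16, with a 95% interval of -0.63 to 0.02 and an adjusted p of 0.186 in edgeR.

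**Figure D2:**
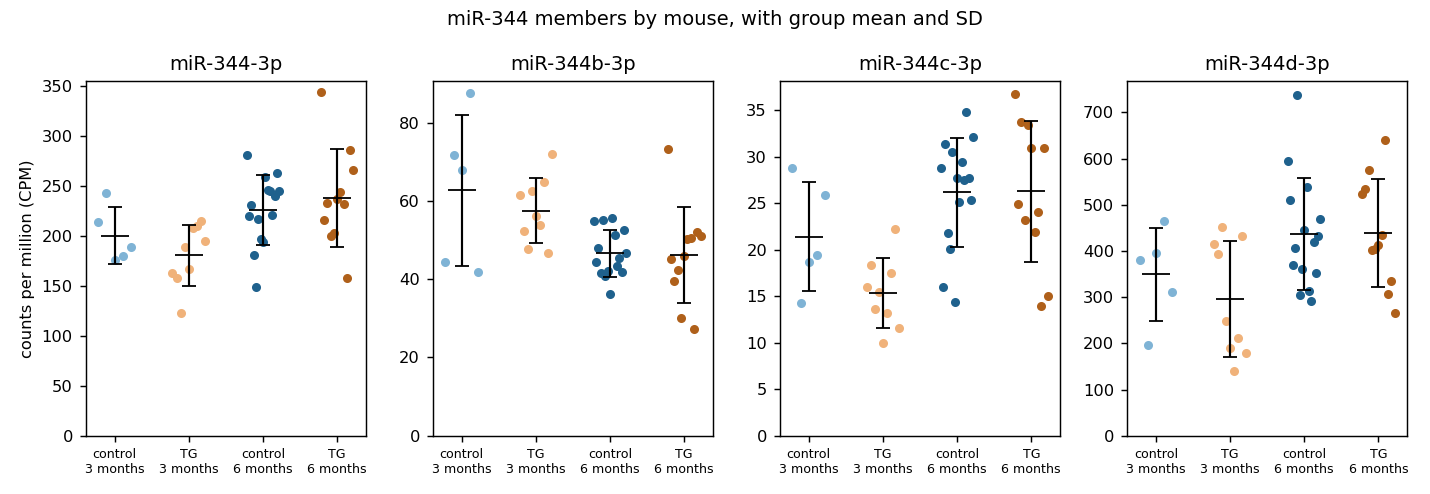
Level of each member in CPM (linear axes from 0, a separate scale for each member) in every mouse, grouped as wild-type control (control) and TG mice at 3 and 6 months, with bars for the mean and SD of each group. miR-344c-3p has its lowest mean, 15.3 CPM, in 3-month TG mice, and miR-344b-3p has lower means at 6 months (46.6 and 46.1 CPM) than at 3 months (62.7 and 57.5 CPM).

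The number of members called depended on the fit. With DESeq2 and 1 or 2 factors of unwanted variation estimated from residuals (RUVr), the kind of fit nearest to the one the study names, 4 of 4 members were called, beside 48.0 and 49.6% of all miRNAs tested. With limma on the deposited normalized values, miR-344c-3p was no longer called, with adjusted p-values of 0.0597 and 0.0636 at pseudocounts of 1 and 0.1, and miR-344d-3p was called instead, beside 14.0 and 13.4% of all miRNAs. Single libraries mattered as well: 3 members were called without 3-month TG mouse 8, and 2 without 3-month TG mouse 3, 6-month TG mouse 9 or 6-month TG mouse 11. The calls over all miRNAs also moved when 1 library was left out, from 72 to 131. The call of miR-344c-3p held without any single mouse, with log2FC between 0.73 and 0.88.

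In wild-type control mice the same comparison of ages called none of the 4 members in edgeR, beside 0.152% of all 660 miRNAs tested. miR-344b-3p was the only member with an unadjusted p under 0.05, and none was called by DESeq2 without added factors. The directions were those seen in TG mice, with a median log2FC of 0.23 over the members and -0.02 over all miRNAs.

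miR-344b-3p was at 44.4, 71.6, 68.0, 87.6 and 41.8 CPM in the 3-month control mice 1 to 5. In the 15 control mice at 6 months it ran from 36.2 to 55.5 CPM with a median of 45.4 CPM. All 15 older mice lay below the mean of the younger ones, 62.7 ± 19.3 CPM, but mice 1 and 5 of the younger group were within the older range. The log2FC was -0.44 ± 0.16, with a 95% interval of -0.77 to -0.11 and an adjusted p of 0.266 in edgeR. It was called in DESeq2 with 1 and 2 RUVr factors, at adjusted p-values of 0.0116 and 0.00568, beside 31.1 and 33.2% of all miRNAs.

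miR-344c-3p was at 28.8, 14.2, 18.7, 19.4 and 25.9 CPM in the 3-month controls and between 14.4 and 34.9 CPM, with a median of 27.7 CPM, in the 6-month controls. Of the older mice, 5 of 15 lay above every younger one, and the log2FC was 0.29 ± 0.20 with an adjusted p of 0.506 in edgeR. The range of the younger controls reached higher than that of the 3-month TG mice, where 22.3 CPM was the highest value.

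For miR-344-3p, the 3-month controls had 214, 243, 175, 180.3 and 189 CPM and the 6-month controls between 149 and 281 CPM, with a median of 231 CPM. Its log2FC was 0.16 ± 0.15 with an adjusted p of 0.597 in edgeR. miR-344d-3p was at 380.2, 196, 395, 464 and 312 CPM in the 3-month controls and between 293 and 738 CPM, with a median of 419.9 CPM, in the 6-month controls. Its log2FC was 0.31 ± 0.21 with an adjusted p of 0.498 in edgeR. Both miRNAs overlapped widely between the ages, and the highest value of either age for miR-344d-3p was that of 6-month control mouse 5.

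Whether the age difference itself differed between the genotypes was tested by an interaction term over all 40 libraries. None of the 4 members was called by edgeR, DESeq2 or limma, none had an unadjusted p under 0.05, and 0.0% of all 699 miRNAs tested were called by edgeR. The interaction of miR-344c-3p was 0.49 on the log2 scale with a 95% interval of -0.05 to 1.03 and an adjusted p of 0.986 in edgeR. The call of miR-344c-3p in TG mice and its absence in controls was therefore not shown to be a difference between the genotypes. For the other members the interaction was 0.22 (miR-344-3p), 0.11 (miR-344b-3p) and 0.25 (miR-344d-3p), each with an interval that included 0.

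**Figure D3:**
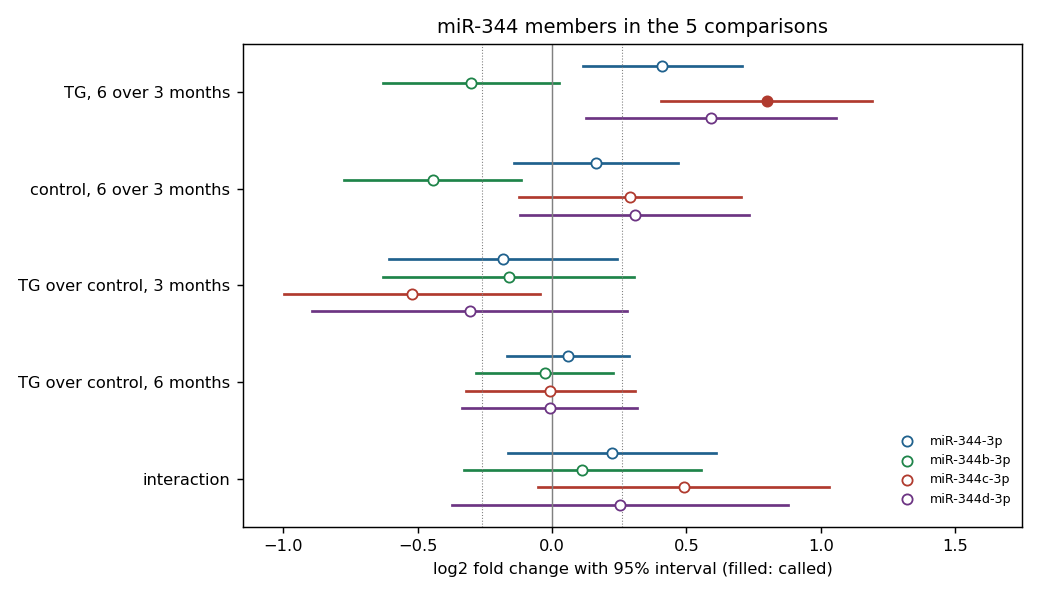
Log2 fold change of each member with its 95% interval in the 5 comparisons, from edgeR's quasi-likelihood test, with filled points for members called, a solid line at 0 and dotted lines at the threshold of 0.26 in either direction. Only miR-344c-3p in TG mice between the ages is filled, at 0.80, and in the comparison of genotypes at 6 months all 4 points lie between -0.03 and 0.06.

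Between genotypes at 3 months, none of the 4 members was called by edgeR, beside 0.0% of the 695 miRNAs tested, and none by DESeq2 without added factors. This comparison uses the same 3-month mice as the comparisons of age, so the values are not independent of those above. All 4 members had lower means in TG than in control mice. miR-344c-3p was the only one with an unadjusted p under 0.05, at 15.3 ± 3.75 CPM in TG mice (SD, n = 9) and 21.4 ± 5.86 CPM in controls (n = 5). Of the TG mice, 4 of 9 lay below every control, and none lay above the highest control. Its log2FC was -0.52 ± 0.23 with an adjusted p of 0.998 in edgeR. With 2 RUVr factors in DESeq2 it was called at an adjusted p of 0.0167, beside 12.2% of all miRNAs.

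The remaining members at 3 months had log2FC of -0.18 for miR-344-3p, -0.16 for miR-344b-3p and -0.31 for miR-344d-3p. Their intervals were wide, the widest being that of miR-344d-3p from -0.89 to 0.28. When 3-month control mice 1 and 2 were counted as TG mice, as their genotype field reads, miR-344-3p came to 0.07.

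At 6 months the genotypes had nearly the same means for all members. miR-344-3p was at 238 ± 49.0 CPM in TG mice (SD, n = 11) and 226 ± 34.7 CPM in controls (n = 15), and miR-344b-3p at 46.1 ± 12.2 and 46.6 ± 6.01 CPM. miR-344c-3p was at 26.3 ± 7.58 and 26.2 ± 5.86 CPM, and miR-344d-3p at 439.8 ± 117 and 437 ± 121 CPM. No member was called by edgeR, beside 0.0% of 612 miRNAs tested, or by any other fit, and none had an unadjusted p under 0.05. The 95% intervals of the log2FC bounded any difference, being -0.17 to 0.29 for miR-344-3p, -0.28 to 0.23 for miR-344b-3p, -0.32 to 0.31 for miR-344c-3p and -0.33 to 0.32 for miR-344d-3p. Differences within these intervals remain compatible with the values. The smallest difference that would have been called with these mice was not computed.

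Because miR-344b-3p and miR-344c-3p lie in introns of the same host gene and had opposite directions with age, their ratio is given for each group as a description. miR-344c-3p amounted to between 0.161 and 0.477 of the miR-344b-3p level in 3-month TG mice, with a median of 0.26. In 6-month TG mice the ratio lay between 0.294 and 1.11 with a median of 0.55. The 3-month controls lay between 0.199 and 0.649 with a median of 0.276, and the 6-month controls between 0.342 and 0.767 with a median of 0.573. The medians were thus higher at 6 months in both genotypes, with overlap in each, and 6-month TG mouse 5 was the only mouse in which miR-344c-3p was above miR-344b-3p. This ratio was chosen after the values of its members were seen and was not tested.

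**Figure D4:**
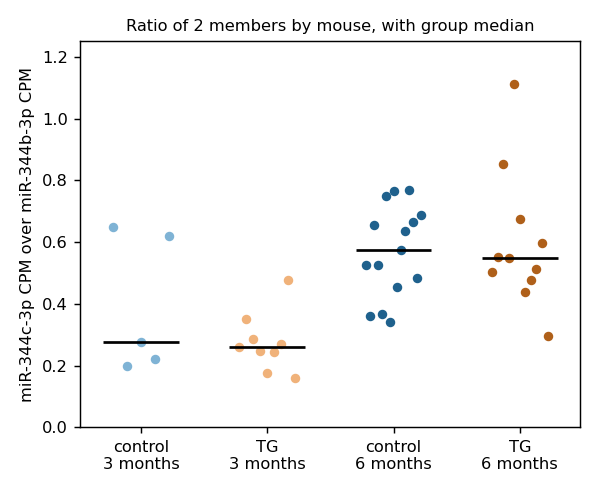
Ratio of the miR-344c-3p level to the miR-344b-3p level, both in CPM, in each of the 40 mice (linear axis from 0), with a line at the median of each group. The medians are 0.276 and 0.26 in control and TG mice at 3 months and 0.573 and 0.55 at 6 months.

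As shares of the sum of the 4 members, miR-344b-3p made up 11.0 ± 3.13% in 3-month TG mice (SD, n = 9), 9.93 ± 2.92% in 3-month controls (n = 5), 6.18 ± 1.29% in 6-month TG mice (n = 11) and 6.41 ± 0.737% in 6-month controls (n = 15). miR-344c-3p made up between 2.80 ± 0.445% in 3-month TG mice and 3.66 ± 1.03% in 6-month controls. The sum itself was 549 ± 111 CPM in 3-month TG mice, 634 ± 88.8 CPM in 3-month controls, 750.0 ± 145 CPM in 6-month TG mice and 735 ± 122 CPM in 6-month controls. The sum is the denominator of these shares, and most of it was miR-344d-3p and miR-344-3p, so the shares add no evidence beyond the levels.

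Among the other entries of the family, miR-344d-3-5p passed the filter in every comparison and rose 1.64-fold between 3 and 6 months in TG mice. It ran from 7.26 to 18.7 CPM with a median of 11.5 CPM at 3 months and from 13.2 to 30.6 CPM with a median of 18.4 CPM at 6 months. All 11 older TG mice were above the mean of the younger ones, and 5 were above every one of them. The log2FC was 0.71 ± 0.22 with an adjusted p of 0.0265 in edgeR. It was the only 1 of 3 other entries tested that was called there, beside 15.7% of all 629 miRNAs tested. In controls the log2FC of this arm was 0.53 ± 0.21 with an adjusted p of 0.301. miR-344d-3p, which can come from the same hairpin or from the other copies, was not called by the main edgeR fit in either genotype. In TG mice it was called with DESeq2 and RUVr factors and with limma. Several alternative edgeR fits also called it there, among them those with RUVr factors, with 1 spike-in factor and with the 4 groups fitted jointly.

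miR-344f-3p, at 12.7 ± 5.63 CPM over the 40 libraries, had a log2FC of 0.35 ± 0.28 with age in TG mice and an adjusted p of 0.393 in edgeR. miR-344e-3p, at 0.918 ± 0.439 CPM, had 0.45 ± 0.34 with an adjusted p of 0.370. miR-344g-3p and miR-344h-3p, at 0.664 and 0.708 CPM, were below the filter in that comparison. No other entry was called in controls between the ages (5 tested), between genotypes at 3 months (5 tested) or at 6 months (3 tested), or for the interaction (5 tested). The means of miR-344e-3p, miR-344g-3p and miR-344h-3p lay within the range that 3 counts give across libraries. Single libraries held 0 to 25, 0 to 37 and 0 to 32 reads of them. They were tested without a call where they passed the filter, and smaller differences in them could be missed at this depth. The remaining entries, which are miR-344i and the 5p arms other than miR-344d-3-5p, held 0 to 84 reads each over all libraries and were not tested.

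The libraries of a group also differed from each other. A leading component computed from 690 miRNAs outside the family held 52.7% of the variance within groups, against 5.81% for the next. Its scores ran in both directions in every group, with 4 of 9 3-month TG mice, 3 of 5 3-month controls, 6 of 11 6-month TG mice and 6 of 15 6-month controls below 0. The mice below 0 were 1, 2, 3 and 8 of the 3-month TG mice and 1, 2, 3, 4, 8 and 9 of the 6-month TG mice. In controls they were 1, 3 and 4 at 3 months and 1, 2, 3, 4, 5 and 9 at 6 months. Mice numbered first in the titles thus fell mostly below 0, and what the numbering stands for is not given. The labels name no batch that these mice share, and the source of the component was not tested.

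The members followed this component in different ways. miR-344d-3p had the higher median in mice with scores below 0 in all groups. The medians were 424 against 189 CPM in 3-month TG mice and 529 against 405 CPM in 6-month TG mice. In controls they were 525 against 361 CPM at 6 months and 395 against 254 CPM at 3 months. The sides overlapped at 6 months, at 308 to 641 against 265 to 435 CPM in TG mice and 370 to 738 against 293 to 469 CPM in controls. In 3-month controls, 3 mice against 2, they did not overlap, but mice 4 and 5 had scores near 0, -0.821 and 0.444. In 3-month TG mice the 2 sides did not overlap, and they are the high and low sets of that group given above. The TMM factors of these sets differed too, at 0.630 to 0.889 in the high set and 1.23 to 1.37 in the low set. A lower factor gives a higher CPM for the same count and depth. In the other groups as well, mice below 0 had the lower factors. The part of this scaling in the split was not tested. miR-344-3p had the order of medians opposite to that of miR-344d-3p, at 159.9 against 195 CPM in 3-month TG mice and 224 against 243 CPM in 6-month TG mice. The direction of the age difference for miR-344c-3p in TG mice was present on each side, with medians of 17.2 CPM at 3 months and 24.5 CPM at 6 months below 0, and 13.3 and 31.0 CPM above 0. These are descriptions of sets of mice that the data define, with no test.

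**Figure D5:**
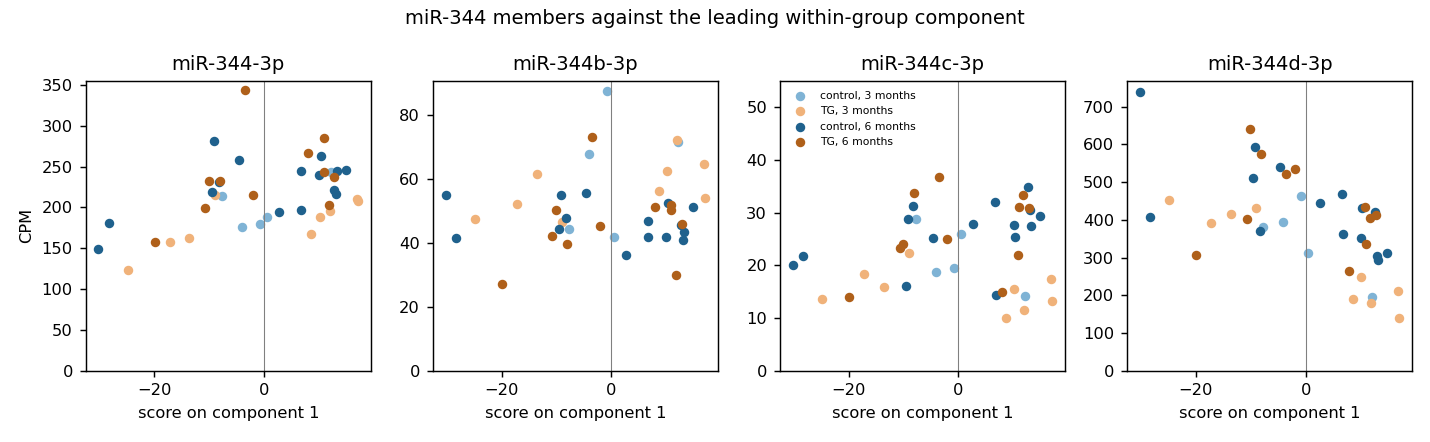
Level of each member in CPM (linear axes from 0) against the score of each library on the leading within-group component of 690 other miRNAs, with points colored by group. miR-344d-3p is higher at scores below 0, where the 3-month TG mice lie between 393 and 451 CPM, than above 0, where they lie between 139.9 and 249 CPM.

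The members varied together within groups to unequal degrees. Over deviations of log2 CPM from the group means in 40 libraries, Pearson's r between members was highest for miR-344-3p and miR-344b-3p at 0.49 (Spearman's rho 0.47) and lowest for miR-344-3p and miR-344d-3p at -0.27 (rho -0.24). miR-344-3p and miR-344c-3p, which share a seed, had 0.36, and miR-344b-3p and miR-344c-3p, which share a host gene, had -0.03. The 2 arms of miR-344d, miR-344d-3p and miR-344d-3-5p, stood closest with 0.79 (rho 0.81), and miR-344f-3p had 0.70 with miR-344d-3p. The points share libraries and the leading component, so these values are descriptions.

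The miRNAs outside the family most like each member were found in the same way among 690 miRNAs. For miR-344-3p they were miR-30e-5p, miR-340-5p and miR-301a-5p, with r of 0.79, 0.74 and 0.74. For miR-344b-3p they were miR-341-3p, miR-488-3p and miR-653-5p, with 0.65, 0.65 and 0.59. miR-653-5p had a mean of only 0.672 CPM, within the range that 3 counts give, and did not pass the filter when TG mice of both ages were compared. miR-341-3p, which had 612 CPM over all libraries and comes from another imprinted miRNA cluster, was also lower at 6 than at 3 months in TG mice. Its log2FC was -0.45 ± 0.12 with an adjusted p of 0.0124 in edgeR, where 8.27% of all miRNAs were called as lower. In controls it was -0.31 without a call. For miR-344c-3p they were miR-218-5p, miR-22-5p and miR-24-1-5p, with 0.75, 0.63 and 0.59. All 3 of these were called as higher with age in TG mice, at log2FC of 0.55, 0.73 and 0.83, beside 7.47% of all miRNAs. In controls between the ages their log2FC were 0.42, 0.45 and 0.66, without a call. For miR-344d-3p they were miR-92b-5p, miR-219a-1-3p and miR-6966-3p, with 0.83, 0.81 and 0.77, and none of these was called with age in TG mice.

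As to the name neuronal, 10 miRNAs known as enriched in neurons were compared with the members in the same 40 libraries. Their r with miR-344-3p ran from -0.54 to 0.65 with a median of 0.51, and with miR-344d-3p from -0.71 to 0.65 with a median of -0.26. For miR-344b-3p it ran from -0.30 to 0.58 with a median of 0.14. For miR-344c-3p it ran from -0.16 to 0.75 with a median of 0.12, the highest being with miR-218-5p. The members therefore differed in how they followed this list, and no member followed all of it. In TG mice between the ages, 2 of the 10, miR-128-3p (log2FC 0.73) and miR-218-5p (0.55), were called as higher, beside 7.47% of all miRNAs, and none as lower, with a median of -0.02 beside -0.09 over all miRNAs. In controls and between genotypes none of the 10 was called by edgeR.

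Markers of cell types moved beside the age difference in TG mice, where 7.47% of all miRNAs were called as higher and 8.27% as lower. Of 4 oligodendrocyte miRNAs, 2 were called as lower, miR-219a-2-3p (log2FC -0.57) and miR-338-3p (-1.02). Their summed level lay between 1601 and 2828 CPM at 3 months and between 1045 and 1864 CPM at 6 months. The sum of the 6 neuron markers lay between 186288 and 341476 CPM at 3 months and between 224365 and 388032 CPM at 6 months. Of the 6, 2 were called as higher, but only 3 had a log2FC above 0, with a median of -0.02. miR-124-3p was at -0.66 without a call. Of the markers of other cells, 2 of 5 choroid plexus, 1 of 4 endothelial and mural and 1 of 4 erythroid miRNAs were called as higher, 1 of 4 erythroid and 1 of 4 heart and muscle miRNAs tested as lower, and none of 5 microglial and leukocyte miRNAs either way. The heart marker miR-208a-3p was at 0 in every library of the 3-month controls, the 6-month controls and the 6-month TG mice. It had reads only among the 3-month TG mice and was below the filter in every comparison. The part of these shifts, and of the difference in depth, in the values of the members was not tested.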

How the data were processed

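Small RNA libraries (NEBNext Small RNA kit) were trimmed with cutadapt and counted per mature miRNA and precursor with mirdeep2 against miRBase by the authors (mm10); per the labels, cutadapt was version 2.8. The deposited raw counts were used as they stand, without 52 spike-in entries. The deposited normalized values are RPM, made by the authors as reads per 1000000 of each table total, and served in the limma alternatives only. For each of 1978 mature miRNAs the precursor row with the highest total was kept. CPM printed here use TMM factors over the 40 libraries. edgeR 4.0.16 (filterByExpr, minimum count 10, TMM, robust quasi-likelihood test) was fitted to the libraries of each comparison, or all 40 for the interaction, in R 4.3.3, with Benjamini-Hochberg adjustment over all miRNAs tested. Alternatives used DESeq2 1.42.0, limma 3.58.1, RUVr and spike-in factors, other scalings and single libraries left out. The fits were tested on simulated data. Named miRNAs were the members, the other miR-344 entries and, per member, the 3 others with the highest r, plus single miRNAs of the neuron and cell type lists. The members and lists were chosen with earlier results of these data known. Titles gave the groups, and no 2 libraries of 1 group agreed within sampling noise.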

Additional observations from a re-analysis of the deposited data

How the results depend on the processing

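The count of members called between the ages in TG mice, 1 in edgeR, was 2 with DESeq2, with the replicate block, with 3-month control mice 1 and 2 counted as TG and without libraries under 5000000 miRNA counts. It was 3 with 1 spike-in factor, in the joint fit of the 4 groups and in edgeR with 1 RUVr factor, and 4 in DESeq2 with 1 or 2 RUVr factors and in edgeR with 2. Leaving out 1 library gave 1 to 3 members. The calls over all miRNAs in these fits are given below. The counts of members do not set the family apart from other miRNAs. In controls the count was 0, and 1 in each of the 4 fits with RUVr factors. Between genotypes at 3 months it was 0, and 1 in DESeq2 and in edgeR with 2 RUVr factors. No fit gave a member for the genotypes at 6 months or the interaction, and leaving out 1 library gave 0 in all comparisons other than that of TG mice. The edgeR fits with RUVr factors, and the leaving out of libraries other than the 3-month controls, were chosen after seeing the data.

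Over all miRNAs, the calls between the ages in TG mice were 99, and 177 with 1 spike-in factor, 302 and 312 in DESeq2 and 293 and 314 in edgeR with RUVr factors. In controls the 1 call became 15 in DESeq2, 190 to 219 with RUVr factors and 250 with the replicate block. It became 0 with upper-quartile scaling or limma, 2 with 1 spike-in factor, and 0 to 4 without 1 library. Between genotypes at 3 months the 0 calls became 7 in DESeq2 with 1 RUVr factor, and 85 in DESeq2 and 48 in edgeR with 2. At 6 months they became 3 and 4 in DESeq2 and 4 in edgeR with 2 factors, and for the interaction 5 and 2 with 2 factors.

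No member changed direction between the ages in either genotype, under any alternative. Between genotypes at 3 months, miR-344-3p had a log2FC of 0.0738 with 3-month control mice 1 and 2 as TG, and miR-344b-3p ran from -0.27 to 0.0107 without 1 library, the sign turning without 3-month control mouse 4. The interaction of miR-344-3p was -0.0149 with those 2 mice as TG, and that of miR-344b-3p ran from -0.0356 to 0.23 without 1 library. At 6 months the log2FC between genotypes were so near 0 that signs turned often. miR-344-3p was at -0.0457 and -0.0459 in limma with pseudocounts of 1 and 0.1, and ran from -0.00202 to 0.11 without 1 library. miR-344b-3p was at 0.0360 without small libraries, and ran from -0.11 to 0.0256. miR-344c-3p was at 0.0145 with upper-quartile scaling, 0.00881 with 1 spike-in factor, 0.00824 in the joint fit, 0.00745 in edgeR with 1 RUVr factor, 0.0499 with the replicate block and 0.0397 without small libraries, and ran from -0.0627 to 0.0507. miR-344d-3p was at 0.00982 without the filter, 0.0114 in the joint fit, 0.00935 in edgeR with 1 RUVr factor and 0.0510 without small libraries, and ran from -0.0796 to 0.0730.

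The replicate numbers of the labels name no shared litter or day. Deviations of same-numbered mice had a mean correlation of 0.23 over 9 pairs of TG mice, 7 of them over 0.1, of 0.04 over 5 pairs of controls, 2 of them over 0.1, and of 0.26 over 11 pairs of the genotypes at 6 months, 9 of them over 0.1. The main fits did not pair the mice, because not every pair was over 0.1. This rule is strict for single mice, and whether same-numbered mice share a source was not tested. With the replicate block, miR-344d-3p was called in TG mice at a log2FC of 0.78.

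With 5 controls at 3 months, comparisons with that group are the least precise: the median SE over all miRNAs was 0.33 between genotypes at 3 months and 0.22 at 6 months.
In limma on the deposited values, which changes scaling, test and pseudocount together, the median log2FC of all miRNAs moved from -0.02 to -0.14 and -0.20 in controls between the ages and from 0.04 to -0.07 and -0.12 between genotypes at 3 months, at pseudocounts of 1 and 0.1.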
